A study of Mus musculus with 10 samples.

Results

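Omg and Ermn, 2 genes known from oligodendrocytes, were followed through the retinal pigment epithelium (RPE) of wild-type mice beside 7 other myelin genes, Mbp, Mog, Mag, Cnp, Mobp, Cldn11 and Ugt8a. Omg and Ermn were chosen because their read counts were lower in Nrf2-treated eyes, and the 7 others were chosen by name as the comparison for carried-over myelin. The 9 genes are 9 of 47729 in the count table. The question was whether Omg and Ermn followed genes of the RPE or the other myelin genes across the 10 libraries. Because the contrast chose Omg and Ermn, and the 7 others were set beside them with it known, the fold changes of the 9 genes are descriptions and are given without a p-value.

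The RPE is the pigmented monolayer behind the photoreceptors, which recycles visual pigment and takes up shed outer segments. Myelin of the central nervous system is made by oligodendrocytes, which in the mouse visual pathway begin behind the eye, in the optic nerve, while the retina and the RPE hold none. An eyecup that keeps a stump of the nerve can therefore bring myelin transcripts into an RPE sample. Omg encodes a membrane-anchored glycoprotein of oligodendrocytes and neurons that binds the Nogo receptor, and Ermn encodes ermin, a cytoskeletal protein of oligodendrocytes that binds actin through a tail like that of ezrin, radixin and moesin.

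The libraries came from 5 CD1 mice, wild-type at P40. In each mouse 1 eye had received AAV Best1 Nrf2 together with AAV Best1 GFP, and the contralateral eye AAV Best1 GFP alone. Both groups of 5 eyes therefore carried GFP, and only the first carried the second vector, which holds the human Nrf2 coding sequence, so the extra vector and the protein it encodes cannot be told apart. The human Best1 promoter limits expression to the RPE. The retina was removed and RNA was taken from the fluid over the cleaned eyecup and amplified, so cells other than RPE could enter the sample, and in such bulk RNA fewer cells of a type and less RNA per cell cannot be told apart.

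Library totals ran from 12298404 to 27310638 counts, and 3 counts, the most that a value of 0 allows for, corresponded to 0.11 to 0.244 CPM, a gene's counts scaled by the library total to a common depth for counting error only. In the edgeR fit the counts assigned to the mouse Nfe2l2 gene were higher by 1.97 (log2) in Nrf2 eyes and those of the Nrf2 target Gclm by 2.95, with adjusted p = 0.0002992 and adjusted p = 0.0001025. Whether reads of the human coding sequence in the vector entered the Nfe2l2 count was not tested. All 25 RPE genes listed passed the filter on low counts, with Best1 the lowest, at 0.766 ± 0.468 CPM in control eyes. Their summed level was 30756 to 59014 CPM in control eyes and 16294 to 38893 CPM in Nrf2 eyes. Carried-over tissue varied widely between eyes: 8 rod genes summed to 152 to 17922 CPM in control eyes and 299 to 6974 CPM in Nrf2 eyes, with the highest value of each group in mouse 2, and 7 skeletal muscle genes to 64.6 to 129 CPM and 6.1 to 818 CPM. Summed levels of 10 macrophage and microglia genes were 159 to 282 CPM in control eyes and 395 to 2026 CPM in Nrf2 eyes, higher in 5 of 5 mice.

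Omg (ENSMUSG00000049612) lies on the minus strand of chromosome 11 at chr11:79500982-79504084 (mm10, GENCODE M21), inside an intron of Nf1, which runs on the plus strand. The 2 merged exons of Omg hold 2228 bases, and 0 of these were shared with an exon of Nf1. Ermn (ENSMUSG00000026830) lies on the minus strand of chromosome 2 at chr2:58045113-58052864, with 3 exons of 3635 bases in all. Of its exon bases 237, or 6.52%, overlapped exons of Galnt5 on the opposite strand, and the strand setting of the counting is not given in the sources used here. Galnt5 stood at 0.629 ± 0.178 CPM in control eyes (SD, n = 5) and at 0.968 ± 1.04 CPM in Nrf2 eyes, far under the counts of Ermn.

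RefSeq promoter windows of GRCm38.p6, from 250 bases before the start to 50 after it, were at hand for 7 of the 9 genes and not for Omg and Mbp. The windows of Ermn (chr2:58052815-58053114, minus strand) and Cldn11 (chr3:31149670-31149969, plus strand) are shown because these genes had the clearest opposite differences among those with a window, with motif matches in capitals.
Ermn: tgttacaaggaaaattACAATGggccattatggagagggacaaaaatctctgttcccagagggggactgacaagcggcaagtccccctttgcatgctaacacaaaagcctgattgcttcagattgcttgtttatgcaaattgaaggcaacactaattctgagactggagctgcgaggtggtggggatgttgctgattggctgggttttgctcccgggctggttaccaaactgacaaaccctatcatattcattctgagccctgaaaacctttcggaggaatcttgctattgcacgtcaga
Cldn11: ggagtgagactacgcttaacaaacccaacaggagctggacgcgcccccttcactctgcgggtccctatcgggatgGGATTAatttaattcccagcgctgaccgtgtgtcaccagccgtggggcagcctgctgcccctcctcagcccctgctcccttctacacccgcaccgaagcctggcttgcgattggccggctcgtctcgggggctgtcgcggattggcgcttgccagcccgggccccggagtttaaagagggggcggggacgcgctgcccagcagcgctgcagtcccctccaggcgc
Motifs were searched on both strands, by letters chosen with the sequences known: TGACNNNGC, the core of the antioxidant response element that Nrf2 binds; CACGTG, the E-box, and CATGTG, the M-box, which MITF family factors bind; ACAATG, a core bound by SOX factors; and TAATCC, a core bound by OTX factors. Among 32851 windows of the same length, 12.4% held the first, 7.15% the E-box, 14.2% the M-box, 12.6% the SOX core and 7.06% the OTX core. The Ermn window held 1 SOX core, at base 17, and none of the others, and the Cldn11 window held 1 OTX core, at base 76. Among the other members the Cnp window held an antioxidant response element core at base 220 and 1 of the 3 Mag windows an M-box at base 164, while the windows of Mobp, Mog and Ugt8a held none. A match of this kind describes the letters and is not a binding site.

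Omg was low in every Nrf2 eye. In control eyes of mice 1 to 5 it stood at 31, 17.5, 21.5, 20.8 and 9.74 CPM. In their Nrf2 eyes it stood at 3.92, 3.54, 2.14, 1.3 and 0.121 CPM, the last from 2 counts. The groups did not overlap, and on the log2 scale the gap was widest in mouse 5, whose Nrf2 eye was the lowest of all 10. The mean was 20.1 ± 7.68 CPM in control eyes (SD, n = 5) and at 2.2 ± 1.57 CPM in Nrf2 eyes. The fitted log2 fold change of Nrf2 over GFP was -3.44 (SE 0.56 over 5 within-mouse differences).

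Ermn was lower in every Nrf2 eye as well, from a much higher level. Control eyes held 450, 311, 492, 556 and 298 CPM, and Nrf2 eyes 162, 68, 232, 126 and 105 CPM, in the order of mice 1 to 5. The highest Nrf2 eye, of mouse 3, was under the lowest control eye, of mouse 5. The means were 421 ± 113 and 138 ± 62.4 CPM (SD, n = 5 each), a fitted log2 fold change of -1.70 (SE 0.23).

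Mbp, the protein that packs the membranes of compact myelin, differed between mice in its direction. Its locus also makes the golli transcripts, which cells outside myelin express, and gene counts do not tell these from the myelin forms. Control eyes held 88, 96, 167, 154 and 218 CPM, and Nrf2 eyes 126, 142, 329, 99.1 and 139 CPM. Mbp was higher in the Nrf2 eye in 3 mice and lower in 2, with means of 145 ± 53.7 and 167 ± 92.2 CPM and a log2 fold change of 0.15 (SE 0.36). The Nrf2 eye of mouse 3 was the highest of the 10.

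Mobp, a small basic protein of compact myelin, varied widely between mice. It stood at 0.867, 1.66, 8.24, 11.8 and 15.5 CPM in control eyes and at 0.865, 5.21, 44, 3.74 and 4.43 CPM in Nrf2 eyes. As for Mbp, the Nrf2 eye of mouse 3 was the highest of its group and the control eye of mouse 5 the highest of the other. The log2 fold change was 0.08 (SE 0.86), and the groups overlapped throughout.

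Cnp, the cyclic nucleotide phosphodiesterase of uncompacted myelin, which many other cells also express at a lower level, held 37, 21.3, 21.2, 17.4 and 19.4 CPM in control eyes and 21.9, 23.3, 27.1, 30.2 and 22.1 CPM in Nrf2 eyes. Mouse 1 alone was lower in its Nrf2 eye, and the fitted log2 fold change was 0.12 (SE 0.23). Cnp shares 154 exon bases with Dnajc7. Mag, the adhesion protein of the myelin layer next to the axon, held 1.53, 1.85, 1.19, 2.93 and 1.76 CPM in control eyes and 1.09, 2.2, 2.59, 1.54 and 1.21 CPM in Nrf2 eyes. It was lower in 3 of 5 Nrf2 eyes, with a log2 fold change of -0.13 (SE 0.36).

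Mog, found on the outermost surface of central myelin, and Ugt8a, which makes its main galactolipid, were near the limit of detection. Mog had 0 to 24 counts a library, or 0.153, 0, 0, 0.299 and 0.879 CPM in control eyes and 0.0911, 0.285, 0.301, 0.163 and 0 CPM in Nrf2 eyes. Ugt8a had 0 to 6 counts, at most 0.37 CPM, in the control eye of mouse 2. Neither passed the filter on low counts, so no fold change is given, and a difference between groups was not detectable at this depth.

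Cldn11, the claudin that seals the layers of central myelin and is also made by cells outside the nervous system, differed in the opposite direction to Omg and Ermn. Control eyes held 0.102, 0, 0.0698, 0.597 and 0.22 CPM, from 0 to 10 counts. Nrf2 eyes held 1.41, 3.29, 2.11, 2.76 and 1.94 CPM, from 31 to 81 counts. The groups did not overlap, and the fitted log2 fold change was 3.67 (SE 0.52), a value that leans on the very low counts of control eyes. Macrophage and microglia genes were higher in the same 5 Nrf2 eyes, at the summed levels given above and with all 10 passing the filter on low counts. Csf1r was the exception, lower in 4 of 5 Nrf2 eyes (196 ± 50.5 and 142 ± 58.9 CPM). Among Nrf2 eyes the order differed: Cldn11 was highest in mouse 2, where that sum was lowest, at 395 CPM. In mouse 5, where the sum was highest, at 2026 CPM, Cldn11 stood at 1.94 CPM. The part of these cells in the Cldn11 difference was not tested.

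**Figure D1:**
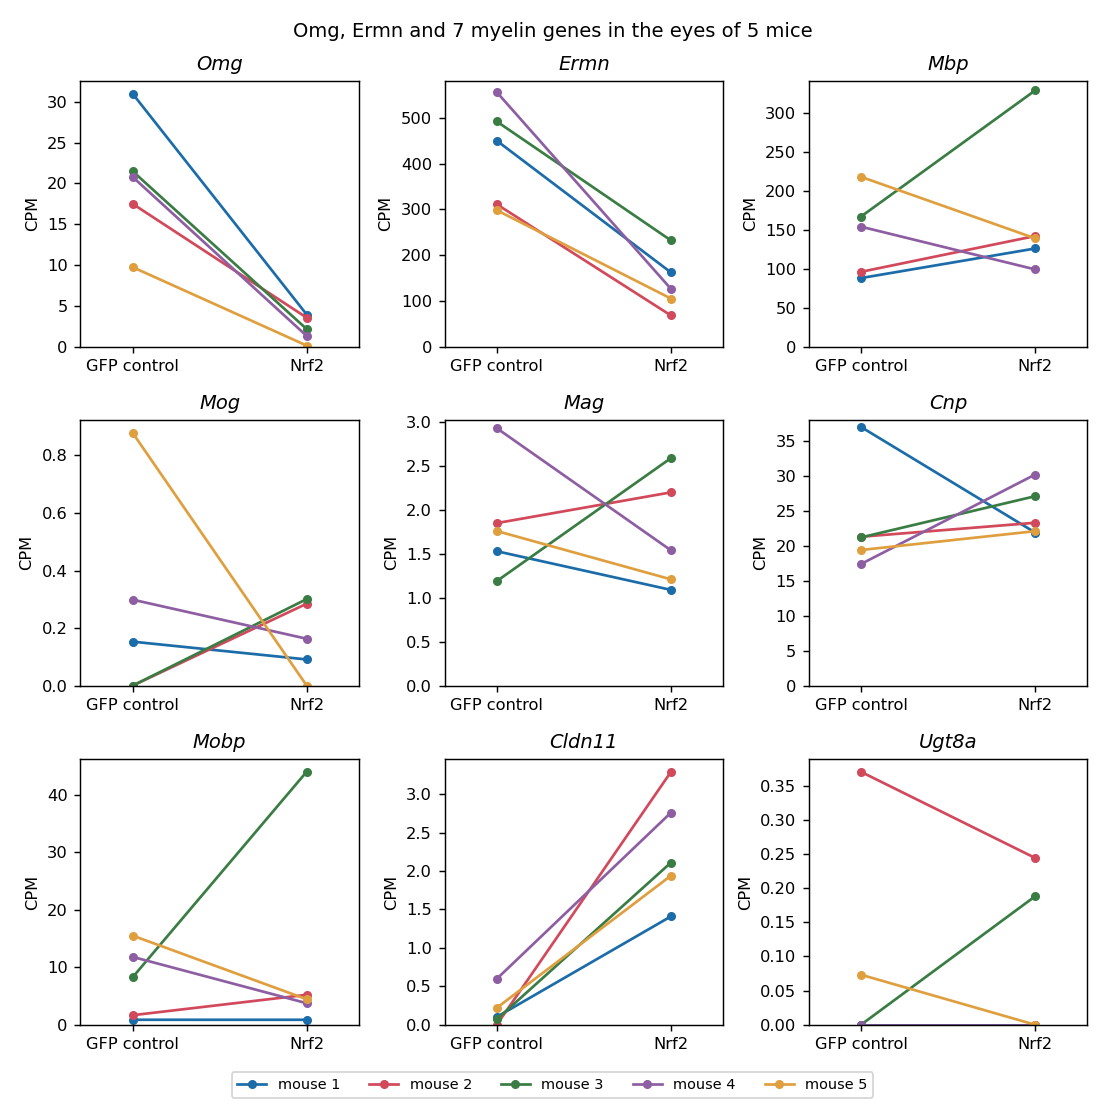
CPM (y axis, from 0) of each of the 9 genes in the GFP control eye and the Nrf2 eye of 5 mice, with a line joining the eyes of a mouse. Omg and Ermn go down and Cldn11 goes up in all 5 mice, while each of the other genes goes up in some mice and down in others.

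Of the 9 genes, 7 passed the filter on low counts. By adjusted p under 0.05 in edgeR's quasi-likelihood test over 16362 genes, 6.33% of all genes were called, 2.73% lower and 3.6% higher. Among the 7 genes, Omg and Ermn were called lower and Cldn11 higher, a count that the choice of genes fixed in part and from which nothing is read. The Cldn11 call was lost without mouse 3 or mouse 5. All Nrf2 eyes were below all control eyes in 2.41% of all tested genes and above them in 3.87%. Over all tested genes the log2 fold changes had a median of -0.01.

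Set against the other myelin genes of the same mouse, Omg and Ermn were low in all 5 mice. The median log2 difference of the 7 comparison genes was 0.00, 0.55, 1.55, -0.64 and -0.74 in mice 1 to 5, although single genes went both ways, Cnp and Cldn11 being higher in the Nrf2 eyes of mice 4 and 5. That median fell on Ugt8a in mice 1 and 3 and on Mog in mouse 4, both near the limit of detection. Omg minus that median was -2.88, -2.84, -4.81, -3.32 and -4.79, with a mean of -3.73 (SE 0.44, n = 5). For Ermn the values were -1.40, -2.76, -2.62, -1.57 and -0.86, with a mean of -1.84 (SE 0.37). Against the median of the 5 comparison genes that passed the filter, a choice made after seeing the data, Omg stood at -2.94, -2.84, -4.34, -3.26 and -4.94 and Ermn at -1.47, -2.76, -2.15, -1.51 and -1.02. In mice 4 and 5, where Mbp, Mag and Mobp were all lower in the Nrf2 eye, the Ermn difference was -2.21 and -1.60, the Mbp difference -0.70 and -0.74, the Mag difference -0.94 and -0.58 and the Mobp difference -1.70 and -1.87, in mouse 5 larger than that of Ermn.

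**Figure D2:**
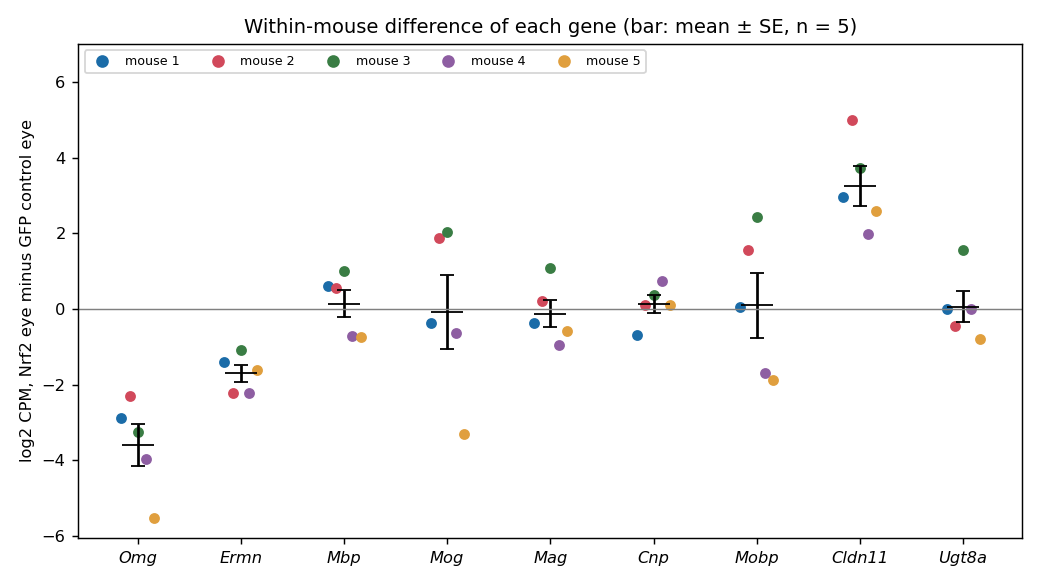
Difference in log2 CPM, Nrf2 eye minus GFP control eye of the same mouse (y axis), for each of the 9 genes. Points are mice, and the black bar is the mean ± SE of 5 mice. All 5 points of Omg and Ermn lie under 0 and all 5 of Cldn11 above it, while those of Mbp, Mag and Mobp lie on both sides.

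A gene must have counts in control eyes to be seen lower in Nrf2 eyes, so the control levels of Omg and Ermn were bound to the choice, and their order among genes chosen by name is a description. Per kilobase of merged exons, Ermn was the highest of the 9 genes in control eyes, at a mean of 116 CPM per kilobase, followed by Mbp at 17.1, Omg at 9.03, Cnp at 6.39, Mobp at 1.11, Mag at 0.454, Mog at 0.156, Cldn11 at 0.106 and Ugt8a at 0.0195. Of neighbours in this order, the control ranges were separate for Ermn and Mbp and for Cnp and Mobp, and overlapped for the 6 other pairs. Ermn per kilobase was 6.79 times Mbp and 18.1 times Cnp, and higher than each of the 7 comparison genes in 5 of 5 control eyes. Omg per kilobase was 19.9 times Mag, 1.41 times Cnp and 0.529 times Mbp, and higher than Mbp in 1 of 5 control eyes. With the longest transcript in place of merged exons, Mbp stood at 30.1, Mobp at 2.32 and Mag at 0.76 CPM per kilobase.

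Genes outside the 9 were set on the same scale. Sox10 stood at 18.4 ± 5.53 and Myrf at 19.2 ± 7.5 CPM per kilobase in control eyes, close to Mbp. The visual cycle isomerase Rpe65 stood at 1806 ± 403 CPM per kilobase, above all of these.

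In Nrf2 eyes Ermn was still the highest of the 9 genes per kilobase, at 38.1 CPM, and Omg was the sixth, at 0.989 CPM. Cldn11, at 1.23 CPM per kilobase, had a higher mean there than Omg and was above it in 4 of 5 Nrf2 eyes.

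**Figure D3:**
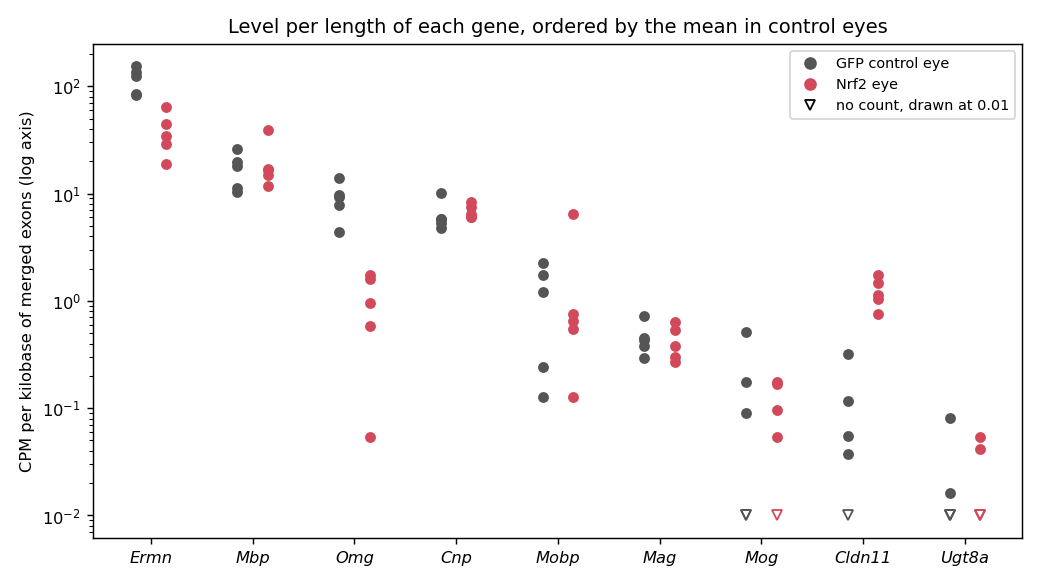
CPM per kilobase of merged exons (y axis, log scale) of the 9 genes, ordered by the mean in control eyes. Grey points are 5 GFP control eyes and red points 5 Nrf2 eyes, and open triangles mark libraries with no count. Ermn is the highest in every library, and Mog and Ugt8a lie near the bottom in both groups.

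Variation between eyes of the same group was then compared. Centring each gene on its group mean removes the mean contrast from this quantity, but not differences between Nrf2 eyes in the size of the contrast. Among Nrf2 eyes, Ermn, Sox10, Rpe65 and Rgr were all lowest in mouse 2 and highest in mouse 3, so the distances are not free of the contrast that chose Ermn. The measure was the root mean square difference between log2 CPM profiles over the 10 libraries, where 0 means equal profiles. Ermn lay 0.30 from the mean profile of the 25 RPE genes and 0.69 from that of the 7 myelin genes. The RPE genes lay 0.12 to 0.99 from the mean of the other RPE genes, with a median of 0.31, and the myelin genes lay 0.36 to 1.44 from the mean of the other myelin genes, with a median of 0.77. Both distances of Ermn lay within those ranges. The measure is not scaled, and the myelin mean is taken over fewer genes, with Mog and Ugt8a near the limit of detection. How many of all tested genes lie nearer to the RPE profile than to the myelin profile was not counted, so the order of the distances has no background. Mbp lay 0.56 from the RPE profile and 0.41 from the myelin profile, and Mobp 1.65 and 1.44. Cnp lay 0.25 from the RPE profile and 0.77 from the myelin profile. The libraries of a mouse share its dissection, and these distances carry no p.

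Omg lay 1.11 from the RPE profile, farther than any of the 25 RPE genes, and 1.24 from the myelin profile, within the range of the myelin genes. Its Nrf2 eyes held 2 to 87 counts, and the part of counting error in these distances was not tested. Within the 5 control eyes, where Omg had 266 to 608 counts, it lay 0.34 from the RPE profile and 0.94 from the myelin profile. The RPE genes there lay 0.12 to 1.16 from the mean of their own others, with a median of 0.29. Ermn lay 0.26 and 0.62 from the RPE and myelin profiles in those eyes. Among control eyes Omg was highest in mouse 1, where Mbp and Mobp were lowest, and lowest in mouse 5, where both were highest. Cnp was also highest in the control eye of mouse 1.

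Over all 10 libraries, contrast included, the genes nearest to Ermn by this measure were Rdh10 at 0.15, a retinol dehydrogenase of the RPE, Hnf4a at 0.18, a nuclear receptor, and Inpp5k, Slc6a20a and Abhd2, each at 0.19. Sox10 ranked 13 and Rlbp1, the retinal-binding protein of the visual cycle, 21, while Rpe65 ranked 362, Rgr 397, Mag 5754, Cnp 7802, Mbp 9000 and Mobp 15389. The genes nearest to Omg were Ermap at 0.78, Elovl2 at 0.80, which elongates polyunsaturated fatty acids, Irx4 at 0.81, Gm525 at 0.81 and Hist1h4n at 0.82. Rgr ranked 13 and Rpe65 ranked 28, while Mbp ranked 11496. These ranks contain the contrast that chose Omg and Ermn and are a description. The RPE genes ranked here, before and after centring, were all called lower in Nrf2 eyes. Rpe65, Rgr, Lrat and Rlbp1 had the largest falls of the RPE list. No rank is given for RPE genes that did not fall, such as Ttr and Dct, so nearness to RPE genes as a whole is not shown. With each gene centred on its group means, Rdh10 ranked 3, Rpe65 32 and Mbp 7236 for Ermn. For Omg, the RPE genes Rlbp1, Rgr, Lrat and Rpe65 then ranked 293, 998, 1502 and 8616, and the myelin genes Cnp, Mag, Mbp and Mobp 2663, 3556, 11987 and 16155.

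**Figure D4:**
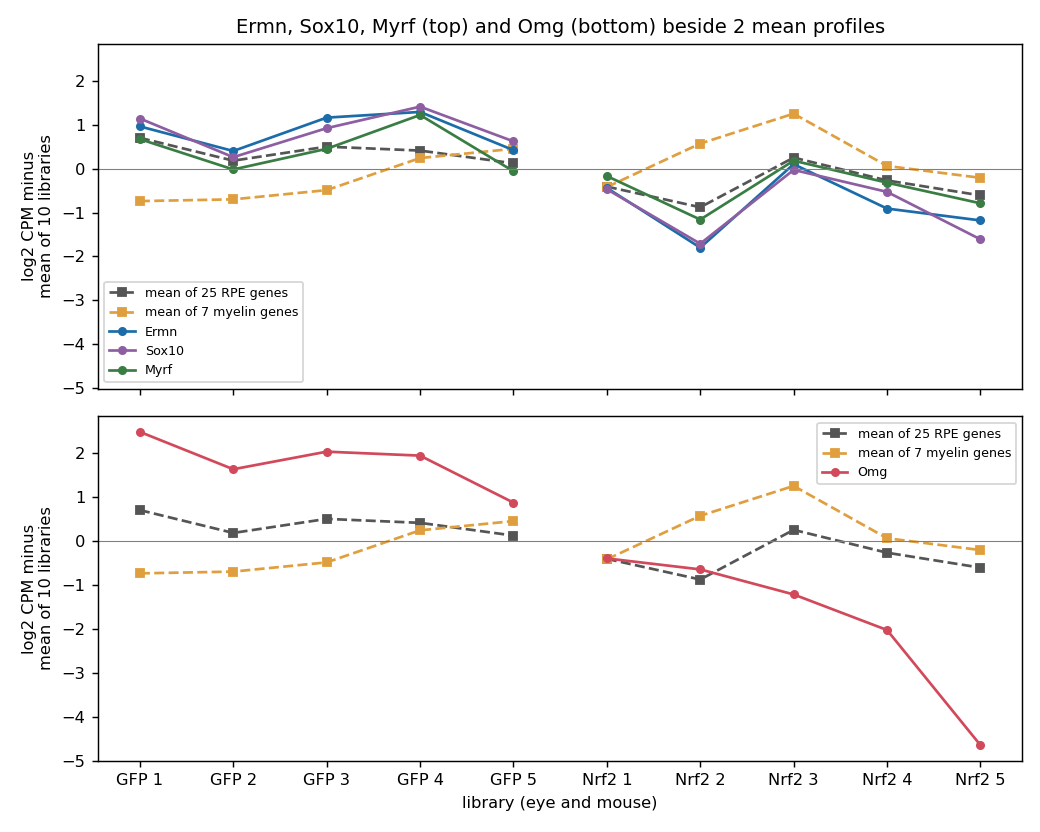
Log2 CPM minus the mean of the 10 libraries (y axis) in each library (x axis, GFP control eyes and Nrf2 eyes of mice 1 to 5; lines only guide the eye) for Ermn, Sox10 and Myrf (top) and Omg (bottom), with the mean of 25 RPE genes in grey and of 7 myelin genes in orange. Over the 10 libraries Ermn and Sox10 lie nearer to the grey line than to the orange line, though not in the control eye of mouse 5 or the Nrf2 eye of mouse 1, and the orange line is highest in the Nrf2 eye of mouse 3.

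A wider list of 21 oligodendrocyte genes was at or near 0 for its defining markers. In these libraries 11 of the 21 never passed 1 CPM, among them Opalin, Olig1, Olig2 and Nkx6-2. Of the 9 tested, 2 were called, both lower, and the median log2 fold change was -0.03.

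Both genes called lower encode transcription factors of the oligodendrocyte lineage. Sox10, which also acts in neural crest derivatives such as Schwann cells and melanocytes, held 66.6, 36.5, 54.1, 78.7 and 44.5 CPM in control eyes and 20.6, 9.35, 27.6, 21.4 and 10 CPM in Nrf2 eyes. It fell in all 5 mice with no overlap of the groups, at a log2 fold change of -1.74 (SE 0.22, edgeR adjusted p = 0.00291). Myrf, which switches on myelin genes, held 184, 116, 150, 266 and 107 CPM in control eyes and 98, 53.3, 123, 95.2 and 68.5 CPM in Nrf2 eyes. It fell in all 5 mice by 0.90 on the log2 scale (SE 0.21, edgeR adjusted p = 0.0276), and the ranges overlapped. That call was lost without mouse 1, 2, 4 or 5, at an edgeR adjusted p of 0.0609, 0.108, 0.0626 and 0.0672, while Sox10 was called in each of these fits.

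Between eyes of the same group, Sox10 lay 0.33 from the RPE profile and 0.67 from the myelin profile, and Myrf 0.30 and 0.66, near the values of Ermn. Of the other genes listed with Sox10 for the melanocyte and glial lineage, Erbb3 had a log2 fold change of -0.00 (edgeR adjusted p = 0.997) and Kit -0.07 (edgeR adjusted p = 0.953).

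Among the rest of the list, Mal, a membrane raft proteolipid also made in epithelia, stood at 958 ± 569 CPM in control eyes and 957 ± 450 CPM in Nrf2 eyes. Bcas1, a gene of newly myelinating cells, stood at 58.8 ± 22.3 and 67.5 ± 29.9 CPM. Mal and Bcas1 were both highest in the control eye of mouse 5 and the Nrf2 eye of mouse 1, the eyes in which Erbb3 and Kit were also highest, whereas Ermn was highest in the control eye of mouse 4 and the Nrf2 eye of mouse 3. Their log2 fold changes were 0.07 and 0.16, with edgeR adjusted p = 0.956 and adjusted p = 0.852.

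RPE genes gave the other side of the comparison. Of 25 listed and tested, 13 were called, all of them lower in Nrf2 eyes, with a median log2 fold change of -0.63. Without mouse 2 the count was 8, and without the mouse as a block 7. Rpe65 fell by 2.88 on the log2 scale (SE 0.30, edgeR adjusted p = 0.0017), from 3492 ± 779 to 547 ± 334 CPM, and Rgr, a retinal opsin of the RPE, by 2.87 (SE 0.34, edgeR adjusted p = 0.00291), from 8876 ± 2568 to 1426 ± 883 CPM. Rdh10 fell by 1.63 (SE 0.18, edgeR adjusted p = 0.00295). Not all RPE genes were lower: Ttr, the thyroid hormone and retinol carrier, and the pigment gene Dct had log2 fold changes of 0.00 and -0.03, with edgeR adjusted p = 0.998 and adjusted p = 0.981. Among Nrf2 eyes Dct and the pigment genes Tyr, Tyrp1, Pmel, Mlana and Slc45a2 were highest in mouse 4. Rpe65, Rgr and the pigment gene Oca2 were highest in mouse 3. These pigment genes are part of the RPE list and its mean profile, and the part of melanocytes in them was not tested. The summed RPE level was lower in 5 of 5 Nrf2 eyes, as Omg, Ermn, Sox10 and Myrf were, and its part in their differences was not tested.

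Cells other than oligodendrocytes that nerve tissue could bring were described by further lists. Of 9 Schwann cell genes, 6 were tested and 1 was called, Cdh19, a cadherin of Schwann cell precursors, which rose by 2.89 on the log2 scale (SE 0.14, edgeR adjusted p = 0.00326) from 0.326 ± 0.219 to 2.35 ± 0.927 CPM. Pmp22, a peripheral myelin protein common in epithelia, had a log2 fold change of -0.30 (edgeR adjusted p = 0.374), Prx 0.41 (edgeR adjusted p = 0.547) and Scn7a 0.38 (edgeR adjusted p = 0.847). The median over the 6 was 0.40, and it was 0.79 without mouse 1, 0.14 without mouse 3 and -0.04 without mouse 4.

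Of 10 astrocyte genes, 9 were tested and 0 were called by edgeR, with a median of 0.42 that was 0.68, 0.24 and 0.02 without mouse 1, 2 and 3. At an unadjusted p under 0.05 there were 0 as well, DESeq2 called 0, and 1 was called without mouse 1. Gja1, which forms gap junctions and is also an RPE gene, stood at 1324 ± 362 and 1829 ± 359 CPM (log2 fold change 0.47, edgeR adjusted p = 0.298). Fgfr3 and Aldh1l1 had log2 fold changes of -0.22 and -0.01. Pax2, which marks astrocytes of the optic nerve head, had no count in control eyes and at most 0.182 CPM in a Nrf2 eye. Other genes of the list were well above it. Gfap stood at 11 ± 7.58 and 33.8 ± 46.8 CPM in control and Nrf2 eyes, with 114 CPM in the Nrf2 eye of mouse 2. Aqp4 stood at 12 ± 6.52 and 18.2 ± 8.85 CPM, and S100b at 6.78 ± 3.22 and 11 ± 4.3 CPM.

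Of 9 ganglion cell genes, whose axons form the nerve, 5 were tested and 2 rose, with a median of 0.42 (0.29 to 0.77 leaving out each mouse in turn). Nefm rose by 4.34 on the log2 scale (SE 0.69, edgeR adjusted p = 0.00803), from 3.63 ± 6.29 to 33.3 ± 15.8 CPM, and Nefh by 3.37 (SE 0.42, edgeR adjusted p = 0.00331). Without the mouse as a block neither was called, with edgeR adjusted p of 0.0939 and 0.203. Nefl, the third neurofilament subunit, was not called (log2 fold change 0.42, edgeR adjusted p = 0.672), and it stood at 109 and 129 CPM in the eyes of mouse 2, where rod genes were also highest. The RNA-binding protein gene Rbpms had a log2 fold change of 0.26 (edgeR adjusted p = 0.805). The defining transcription factor genes Pou4f1 and Pou4f2 did not exceed 0.256 CPM in the eyes of mice other than mouse 2.

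**Figure D5:**
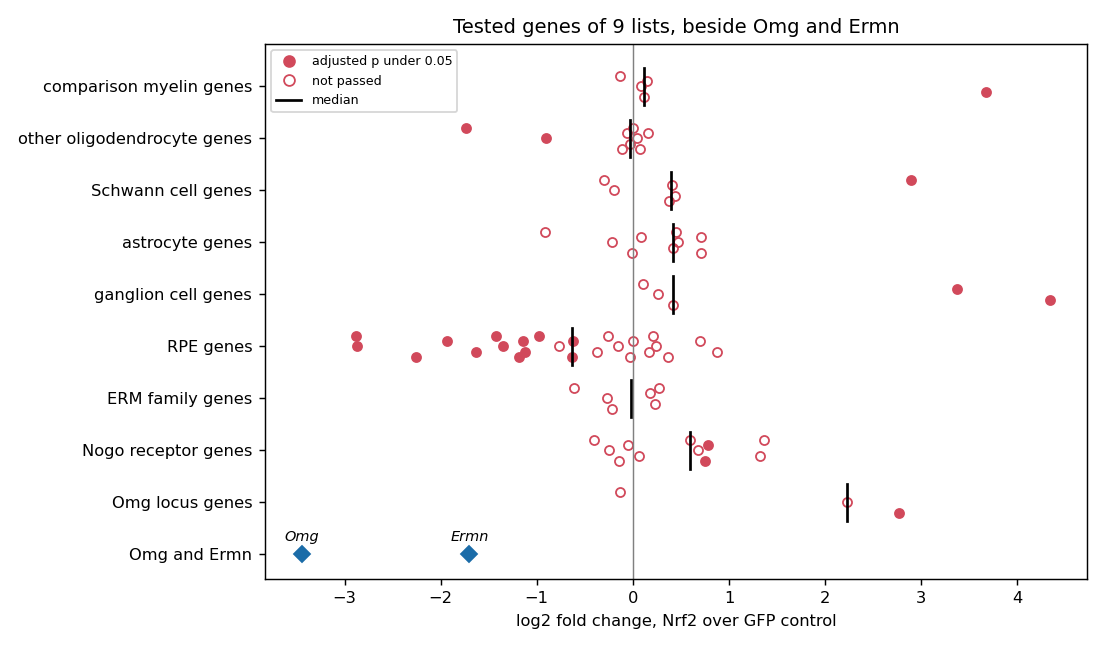
Log2 fold change of Nrf2 over GFP control (x axis) of the tested genes of 9 lists, with Omg and Ermn as blue diamonds. Filled points passed an adjusted p of 0.05 in edgeR, open points did not, and black bars are list medians. The RPE list reaches from -2.88 to 0.88, and 2 filled points of the oligodendrocyte list, Sox10 and Myrf, lie to the left of 0.

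Relatives of ermin and partners of Omg were described by 2 further lists. Of 6 genes of the ezrin, radixin and moesin family and its scaffolds, to which the tail of ermin is related, 0 were called by edgeR in either direction, 2 had an unadjusted p under 0.05 and DESeq2 called 1, and the median was -0.02. Ezr, which anchors actin in the apical microvilli of the RPE, stood at 845 ± 92 and 1002 ± 78.4 CPM (log2 fold change 0.23, SE 0.05, higher in 5 of 5 mice, edgeR adjusted p = 0.29). Its scaffold Slc9a3r1 stood at 423 ± 129 and 271 ± 27.2 CPM and was lower in 5 of 5 mice with no overlap, by a log2 fold change of -0.61 (edgeR adjusted p = 0.094). Msn had a log2 fold change of 0.27 (edgeR adjusted p = 0.621).

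Omg is a ligand of the Nogo receptor, and 11 genes of that receptor, its partners and its signal were tested. Of these, 2 were called, both higher, with a median of 0.59, which was 0.01 over the 8 genes with a mean of at least 50 counts. Rtn4, which encodes Nogo, another ligand of the receptor, rose by 0.78 on the log2 scale (SE 0.12, edgeR adjusted p = 0.0117), from 150 ± 36.6 to 255 ± 27.8 CPM with no overlap. Rock2, a kinase of the signal downstream, rose by 0.75 (SE 0.16, edgeR adjusted p = 0.0219), from 76 ± 18.4 to 127 ± 4.88 CPM, and its call was lost without mouse 1, 2, 3 or 4, at an edgeR adjusted p of 0.0514, 0.0711, 0.0564 and 0.0682. The receptor Rtn4r held 1.59 ± 0.236 and 2.45 ± 0.549 CPM and was not called (log2 fold change 0.59, edgeR adjusted p = 0.241). Rtn4rl1, a homologue of the receptor, had a log2 fold change of -0.25 (edgeR adjusted p = 0.429) and Rhoa, the GTPase of the signal, 0.06 (edgeR adjusted p = 0.838).

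Of 3 other genes inside Nf1, Evi2a was called higher, Evi2b was not called and Evi2, with at most 0.971 CPM, did not pass the filter. Evi2a held 0.51, 0.986, 0.908, 0.239 and 0.366 CPM in control eyes and 3.19, 1.59, 3.76, 4.39 and 9.47 CPM in Nrf2 eyes. It rose in all 5 mice with no overlap (log2 fold change 2.77, SE 0.64, edgeR adjusted p = 0.0421), and the call was lost without mouse 1, 3, 4 or 5, at an edgeR adjusted p of 0.0962, 0.0905, 0.139 and 0.0975. Evi2b had a log2 fold change of 2.23 (edgeR adjusted p = 0.0975). Both are expressed in blood cells, and their Nrf2 values were high in mouse 5 and mouse 4, where the 10 macrophage and microglia genes summed to 2026 and 1190 CPM, the highest of the 10 libraries. The part of these cells in the difference was not tested. Nf1 itself held 9.29 ± 3.84 and 8.17 ± 1.2 CPM (log2 fold change -0.13, edgeR adjusted p = 0.866). Galnt5, which overlaps Ermn, had a log2 fold change of 0.17 (edgeR adjusted p = 0.92).

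Rod RNA differed widely between eyes, so Omg and Ermn were also fitted with it in view. With the mean level of the rod genes as a covariate, the log2 fold change was -3.35 for Omg and -1.50 for Ermn. Without mouse 2, whose eyes held the most rod RNA, it was -3.76 and -1.53. Leaving out each mouse in turn gave -3.76 to -3.10 for Omg and -1.80 to -1.53 for Ermn, against -0.01 to 0.39 for Mbp, -0.52 to 0.70 for Mobp and 3.25 to 4.31 for Cldn11.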

How the data were processed

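RNA-seq libraries were made from the RPE of 5 CD1 mice, both eyes of each, after low-input amplification of polyA RNA, and were sequenced in 2 runs. Which libraries shared a run is not given in the sources used here, the 10 titles carry the same date and pool name, and the part of the run was not tested. The authors deposited whole-number read counts per Ensembl gene. The study's methods describe STAR alignment to mm10 with featureCounts and, in parallel, Salmon (version 0.8.2 per the submitters' processing notes), and which of them made the table, and with what strand setting, is not given in the sources used here.

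Gene symbols, positions and exon lengths came from GENCODE M21, which holds 47224 of the 47729 identifiers. Genes kept by filterByExpr (16362, with 99.8% of all counts) were fitted in edgeR 4.0.16 (R 4.3.3) with TMM normalization, the mouse as a block and a quasi-likelihood F test, with Benjamini-Hochberg adjustment over all tested genes and a threshold of 0.05. The SE beside a fold change is that of the 5 within-mouse differences in log2 CPM (prior count 2), and CPM values use library totals. Eyes of the same mouse deviated together (r = 0.19 to 0.71 over genes, against -0.42 to 0.28, with a median of -0.08, for eyes of different mice), and the labels give the mouse. No 2 libraries agreed within sampling noise. The fit was also run on simulated data with known changes, and the outcome is not reported here.

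The 9 genes, the lists and the motifs were chosen with earlier results of these data known. Genes were named by rule: all 9 members; from each list the called gene with the largest rise or fall and the 3 of highest mean CPM; the 5 genes nearest in profile to Omg and to Ermn; and genes overlapping either. Nefh, Rock2, Rdh10, Rtn4r, Erbb3, Kit, Pax2, Gfap, Aqp4, S100b, Olig1, Olig2, Opalin, Nkx6-2, Pou4f1, Pou4f2, Nfe2l2, Gclm, Rlbp1, Lrat, Best1, Tyr, Tyrp1, Pmel, Mlana, Slc45a2, Oca2, Csf1r, Evi2 and Dnajc7 were named after their values were seen. Alternatives were no block, DESeq2 1.42.0, its size factors, other filters, thinning, a rod covariate, leaving out each mouse, transcript length and prior count. Replicates are separate mice. Some items of the lists are not reported here.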

Additional observations from a re-analysis of the deposited data

Results flagged for a closer look

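Of 110 groups of 5 values checked, 7 held a value far from the other 4, and chance alone gives about 5.5 at 1 in 20. Values are log2 CPM. Mbp in the Nrf2 eye of mouse 3 stood at 8.44, with the other Nrf2 eyes at 6.58 to 7.10. The summed level of the 7 comparison myelin genes stood at 8.66 in the same eye, against 7.10 to 7.47. Nefl in the Nrf2 eye of mouse 2 stood at 6.96, against 0.92 to 2.22, the summed rod genes there at 12.77, against 8.22 to 8.89, and the summed endothelial genes at 6.15, against 5.01 to 5.33. Msn in the control eye of mouse 1 stood at 7.75, against 6.89 to 7.12. The summed Sox10, Erbb3 and Kit level in the Nrf2 eye of mouse 1 stood at 7.85, against 7.12 to 7.25.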

How the results depend on the processing

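The direction of Omg, Ermn and Cldn11 was the same under each alternative that gave a value. The sign changed under at least 1 alternative for 17 values, 0 of them fold changes of called genes: with the rod covariate Scn7a was -0.29, Rbpms -0.23, Nf1 0.16, Galnt5 -0.21, Mal -0.10, Mag 0.08, Cnp -0.08 and the Schwann cell median -0.16, without mouse 1 Dct was 0.32 and Mal -0.20, and without mouse 3 Mobp was -0.52. Without the replicate block, the log2 fold change was -3.16 for Omg and -1.60 for Ermn, 755 genes were called in place of 1036, and the counts called were 1 oligodendrocyte, 0 ganglion cell and 7 RPE genes. DESeq2 with the replicate block called 1812 genes, 1 ezrin family gene (Slc9a3r1) and 2 genes of the Omg locus. With the rod covariate 533 genes were called, with 0 comparison myelin, 1 oligodendrocyte, 1 Nogo receptor and 0 Omg locus genes. At a mean of at least 50 counts, 0 comparison myelin, 0 Schwann cell and 0 Omg locus genes were called, since Cldn11, Cdh19 and Evi2a were no longer tested. Leaving out each mouse in turn gave 584 to 857 genes (584, 613 and 683 without mice 2, 4 and 5), 0 to 1 comparison myelin, 1 to 2 oligodendrocyte, 0 to 1 astrocyte, 8 to 12 RPE, 1 to 2 Nogo receptor and 0 to 1 Omg locus genes. Except for that filter, the cause was not tested.

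With the longest transcript as length, the control level was 30.1 for Mbp, 2.32 for Mobp and 0.76 CPM per kilobase for Mag. Distances to the RPE and myelin profiles, in settings chosen after seeing the data, were 1.79 and 2.38 for Omg and 0.55 and 1.30 for Ermn when centred over all libraries, and Omg lay 0.34 from the RPE profile in control eyes alone. At a prior count of 0.5, Omg minus the myelin median was -4.05 and Ermn -2.01, and with the tested comparison genes alone -3.66 and -1.78. Depth limited Mog, Ugt8a, Cldn11 in control eyes and Omg in Nrf2 eyes, where single libraries held from 0 to 87 counts.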
